A study of Mus musculus with 32 samples.

Results

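This account covers 164 cartilage genes whose RNA was low at both ends of a series of mouse samples, MMS D3 and MMS D28, out of 1606 genes in the deposited cartilage table. For every gene the log2 difference from Control was taken as log2 of the group mean plus 1 minus the same for Control. A gene was a member if this difference was at or under -0.5 in MMS D28 and if the MMS D3 difference was at least 0.6 of the MMS D28 difference. The MMS D3, MMS D28 and Control values therefore chose the members, and those values are given below as a description with no test. Of the 780 genes that met the MMS D28 threshold, the 164 members were those that also met the ratio. Genes left out could still be low at MMS D3. Jakmip1, for example, had a difference of -0.63 there and a ratio of 0.585.

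RNA sequencing had been run on cartilage and synovium of C57BL/6 mice, in mice labelled Control, in mice of a model labelled MMS at D3, D7, D14 and, in cartilage only, D28, and in groups labelled R1 and R2. What MMS, R1 and R2 stand for is not given in the labels, which have no unit for the D numbers, no age or sex, and do not say whether a sample is 1 animal or a pool. Each of the 7 cartilage groups had n = 2 samples and each of the 6 synovium groups n = 3. Cartilage values are a deposited signal of unstated unit and synovium values are FPKM (fragments scaled by transcript length and library size), and the depth of the libraries is unknown. P-values measure only the spread between these samples, which may be technical.

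Joint tissue of the mouse holds cells of several lineages side by side. Chondrocytes lay down cartilage matrix, osteoblasts mineralise the adjoining bone and secrete osteocalcin, and the marrow under the joint surface is a main site of B cell formation. Muscle and fat lie next to the joint. Interferon-inducible genes are switched on in many cell types through a factor complex that binds the interferon-stimulated response element (ISRE). In such bulk samples, fewer cells of a type and less RNA per cell cannot be told apart.

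The cartilage label was checked against 23 chondrocyte matrix genes, of which 18 were in the table and 2, Col11a2 and Fmod, were members. Col2a1, the main collagen of cartilage, read 906 and 638 in Control and 192 and 517 in MMS D28. The summed level of the 18 genes was 15049 to 20245 in Control, 23441 to 23682 in MMS D3, 5417 to 6758 in MMS D14, 6830 to 8197 in MMS D28 and 12487 to 15067 in R2. The table also held 22 of 25 neutrophil genes, none of them members, with summed levels of 34721 to 35203 in Control and 55056 to 73146 in MMS D28. The part of such shifts in the members' values was not tested.

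Relative to Control the members had a median difference of -0.72 at MMS D3 and -0.69 at MMS D28, with -0.48 at MMS D7 and -0.44 at MMS D14 between them, and of -0.51 in R1 and -0.06 in R2. The whole table had medians of 0.07 and -0.49 at MMS D3 and MMS D28, -0.06 and 0.04 at MMS D7 and MMS D14, and -0.18 and 0.02 in R1 and R2. Centring every sample on its own median moved the table's MMS D28 median to -0.32 and the members' to -0.52. By the choice of members 131 of 164 were at or under -0.5 in MMS D3 and 164 in MMS D28, against 12.2% and 48.6% of the table, and nothing is read from these shares.

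The working name of the set, lowered early and throughout, held for only some members. In MMS D7, 79 of 164 members (48.2%) were at or under -0.5, against 15.1% of all genes. In MMS D14, 74 were (45.1%), against 23.3%. A difference at or under -0.5 in all 4 MMS groups was met by 55 members, while 47 met it in MMS D3 and MMS D28 alone. In MMS D14, 37 members lay above Control in the mean, and in 23 of them both samples lay above both Control samples, against 44.6% of the table. In R1, 86 members (52.4%) were at or under -0.5, against 22.7%, and in R2 only 26 (15.9%) were, against 6.16%. These 4 groups share their Control samples with the rule, so no test was made of them against Control.

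**Figure D1:**
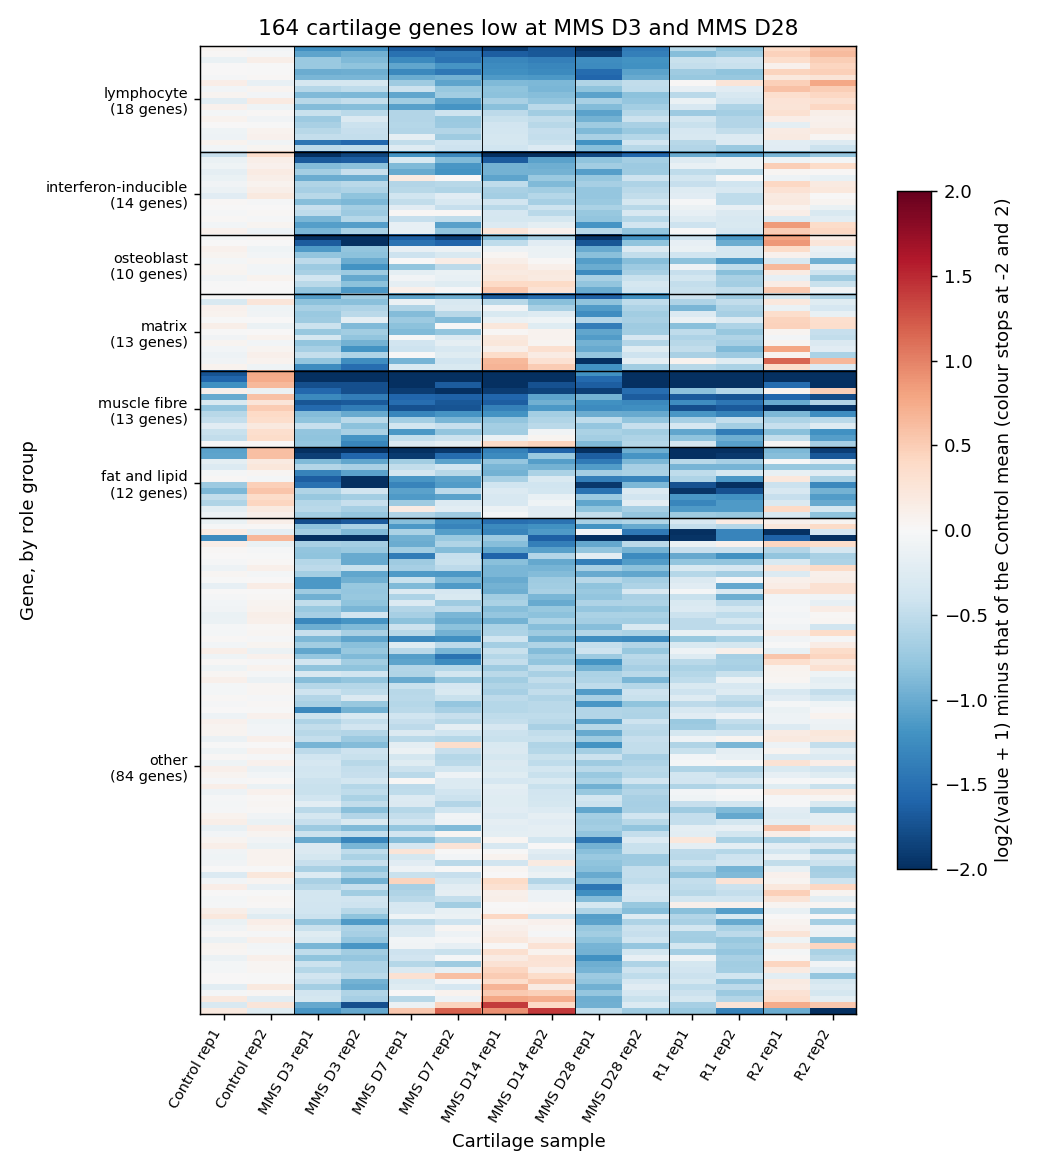
Each row is 1 of the 164 genes and each column 1 cartilage sample; the colour is log2 of the value plus 1 minus that of the Control mean, ending at -2 and 2. Rows are grouped by role and ordered by their MMS D14 difference. The lymphocyte block is blue through MMS D28 and pale red in R2, the osteoblast and matrix blocks are pale in MMS D14, and Control replicate 2 is red in muscle and fat genes.

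The choice rested on 2 samples a group and shifted with single libraries. Without Control replicate 2, 125 of the members still met the rule, and without MMS D28 replicate 1 or replicate 2, 106 and 118 did. In all, 58 members met it without each of the 6 libraries in turn. When members were chosen in the replicate 1 samples alone, 111 of 113 lay below Control in both MMS D3 and MMS D28 of replicate 2, against 31.1% of the table. Chosen in replicate 2, 147 of 155 did so in replicate 1, against 34.4%. The whole rule was met again by 61 of the 113 and by 61 of the 155. Of the 1606 genes of the table, 885 had both MMS D28 samples below both Control samples and 692 had both above. Agreement in sign between replicates was therefore largely given at MMS D28. The counts describe the choice and do not support it. The ratio was 0.605 in N4bp3 and 0.608 in Zfp874a, just inside its limit, and 0.593 in Tgm2, just outside. At the MMS D28 limit, Ptger4 and Dclk2 lay inside at -0.51 and Pwwp2b outside at -0.499.

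By known role 80 members could be put in 6 groups after their values had been seen: 18 lymphocyte genes, 14 interferon-inducible genes, 10 osteoblast genes, 13 matrix genes, 13 muscle fibre genes and 12 fat and lipid genes. The other 84 stand in no group. The groups are a way of ordering the members and support nothing by themselves.

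**Figure D2:**
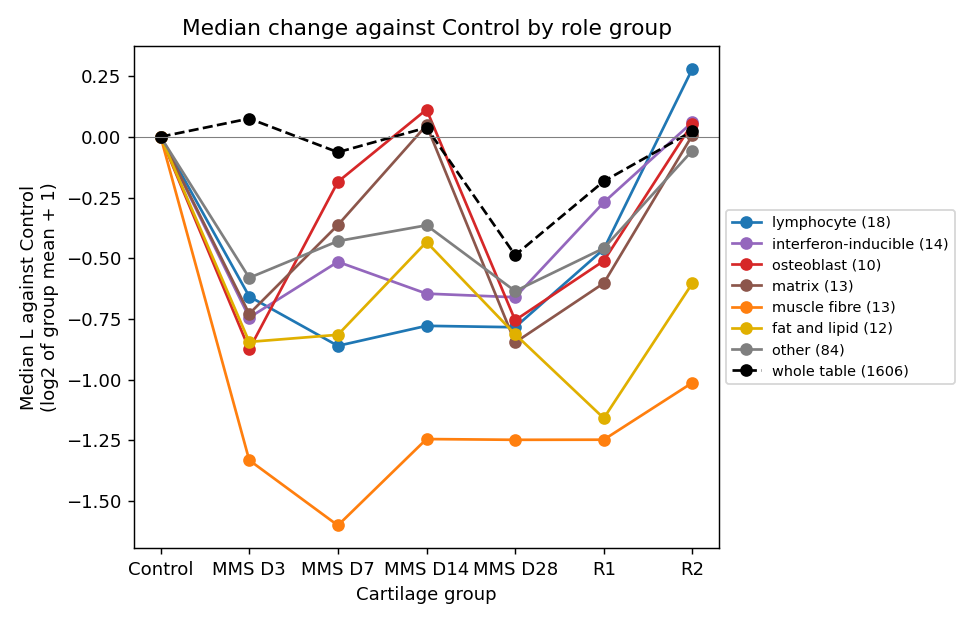
Points are the median log2 difference from Control of each role group (number of genes in brackets) in each cartilage group, and the dashed line is the whole table. The lymphocyte line ends at 0.28 in R2, the osteoblast and matrix lines rise to 0.11 and 0.05 in MMS D14 between their low ends, and the muscle line stays under -1 in every group.

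The lymphocyte members were low in all 4 MMS groups, and most stood above Control in R2. They include Vpreb3, Igll1, Blnk, Ebf1 and Pou2af1, which serve the pre-B cell receptor, its signalling and the B cell transcription programme, and Irf4 and Mzb1, which act in B cell and plasma cell differentiation. In MMS D7 and MMS D14 all 18 had both samples below both Control samples, against 35.2% and 40% of the table. Of all 164 members, 132 and 106 did. All 18 also did in MMS D3 and MMS D28, where 27.3% and 55.1% of the table did. There 162 and 155 of the 164 members did, largely by the choice of members, and nothing is read from it. In R2, 14 of 18 had both samples above both Control samples, against 29.6%, and 2 had both below. Their median difference was -0.66 at MMS D3, -0.86 at MMS D7, -0.78 at MMS D14 and at MMS D28, -0.46 in R1 and 0.28 in R2.

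Vpreb3, a partner of the immunoglobulin chains in B cell precursors (chr10:75943057-75949657, plus strand; positions are GENCODE vM21 gene models on GRCm38), read 124 and 115 in Control, 50.5 and 49.9 in MMS D3, 36.8 and 33.9 in MMS D7, 31.2 and 36.02 in MMS D14, 22.9 and 43.7 in MMS D28, 80.3 and 68.3 in R1 and 157 and 179.8 in R2. All MMS samples lay below the R1 samples, these below Control, and both R2 samples above Control. Pou2af1, the B cell coactivator of octamer factors (chr9:51213708-51240080, plus strand), read 47.3 and 45.8 in Control, 21.9 and 23.4 in MMS D3, 15.8 and 16.6 in MMS D7, 14.2 and 13.7 in MMS D14, 11.9 and 17.5 in MMS D28, 25.4 and 28.4 in R1 and 64.05 and 72.7 in R2. The same held for Pou2af1: MMS lowest, then R1, Control and R2. Ptprcap, a partner of the leukocyte phosphatase CD45, read 86.1 and 86.1 in Control, 42.7 and 43.4 in MMS D3, 34.8 and 31.4 in MMS D7, 36.4 and 34.9 in MMS D14, 29.1 and 40.6 in MMS D28, 52.4 and 48.7 in R1 and 118 and 120.2 in R2. The Control samples of Ptprcap differed by less than 0.1, and both R2 samples were the highest of the 14.

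Igll1, the surrogate light chain of the pre-B cell receptor, departed from this course. It read 29.5 and 26.9 in Control, 9.63 and 8.82 in MMS D3, 19.6 and 21.2 in MMS D7, 21.9 and 20.4 in MMS D14, 11.7 and 21.2 in MMS D28, 18.9 and 23.2 in R1 and 24.3 and 23.4 in R2. Its MMS D3 samples were the lowest, the MMS D7 and MMS D14 samples lay between those and Control, and no R2 sample reached Control. Il7r, the receptor of a lymphocyte growth factor, read 6.56 and 5.24 in Control, 4.39 and 4.38 in MMS D3, 3.22 and 2.32 in MMS D7, 2.74 and 2.71 in MMS D14, 3.56 and 3.88 in MMS D28, 6.01 and 7.22 in R1 and 8.56 and 10.8 in R2, so that R1 already overlapped Control. Lck and Ctsw, genes of T cells and cytotoxic lymphocytes, had differences in MMS D28 of -0.61 and -0.69. A list of 20 T cell and natural killer cell genes had 5 in the table and 2 members. Of these 5, 4 lay below Control in MMS D28. Their summed level was nonetheless higher there, at 130 to 162 against 96 to 108 in Control, and 129 to 139 in R1.

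A list of 30 B lineage genes had 21 in the table and 6 of them among the members. Of the other 15 genes, 14 lay lower in MMS D28 than in MMS D3, and Jchain, an immunoglobulin joining chain gene, lay above Control in MMS D28 at 0.92. The list's median difference was -0.60 in MMS D3 and -1.65 in MMS D28. Summed over the 21 genes, the level was 1036 to 1088 in Control, 590 to 659 in MMS D3, 277 to 401 in MMS D28, 539 to 587 in R1 and 1363 to 1410 in R2.

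The comparisons that the rule did not use are those among MMS D7, MMS D14, R1 and R2. They were tested with limma over all 1606 genes, and changes are log2 ± standard error with Benjamini-Hochberg adjusted p. Between R2 and MMS D14, 67 of 164 members were higher (40.9%) and 8 lower (4.88%), where 19.8% and 15.9% of all genes were. Without R2 replicate 1 the lower count became 21 and the higher 54, and without any of the other 3 libraries of these groups the lower count was 2 to 4. Of the lymphocyte members 16 of 18 rose, with a median change of 1.12, and 13 to 14 passed without any 1 of the 4 libraries. Vpreb3 rose by 2.29 ± 0.23, adjusted p = 1.22e-05, Pou2af1 by 2.21 ± 0.16, adjusted p = 1.94e-06, and Irf4 by 1.76 ± 0.13, adjusted p = 1.94e-06. The members that did not pass were Igll1 (0.17 ± 0.21, adjusted p = 0.551) and Ctsw (0.01 ± 0.14, adjusted p = 0.96). In the B lineage list 20 of 21 genes rose and none fell.

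Against MMS D14, R1 had 22 members higher (13.4%) and 37 lower (22.6%), where 8.28% and 9.78% of all genes were. Without any 1 library of these groups fewer members were called. The balance also rested on single libraries: without MMS D14 replicate 1 or R1 replicate 2 most of the members called were higher. In R1, 7 of 18 lymphocyte members had risen over MMS D14 (4 without R1 replicate 1), led by Vpreb3 at 1.12 ± 0.23, adjusted p = 0.00532, and Il7r at 1.03 ± 0.16, adjusted p = 0.00171. The Vpreb3 call was lost without MMS D14 replicate 1 (adjusted p = 0.0527 in limma) or R1 replicate 1 (0.05001).

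From R1 to R2, 61 members rose (37.2%) and none fell, where 13.2% of all genes rose and 22.4% fell. None of the members was lower at an unadjusted p under 0.05 either. The calls dropped to 27 without R1 replicate 1, 18 without R1 replicate 2 and 21 without R2 replicate 1, where 1 of the 21 was lower. Among lymphocyte members 15 of 18 rose, 9 of them without R1 replicate 2. Pou2af1 rose by 1.31 ± 0.16, adjusted p = 0.000275, and Ptprcap by 1.22 ± 0.15, adjusted p = 0.000275.

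**Figure D3:**
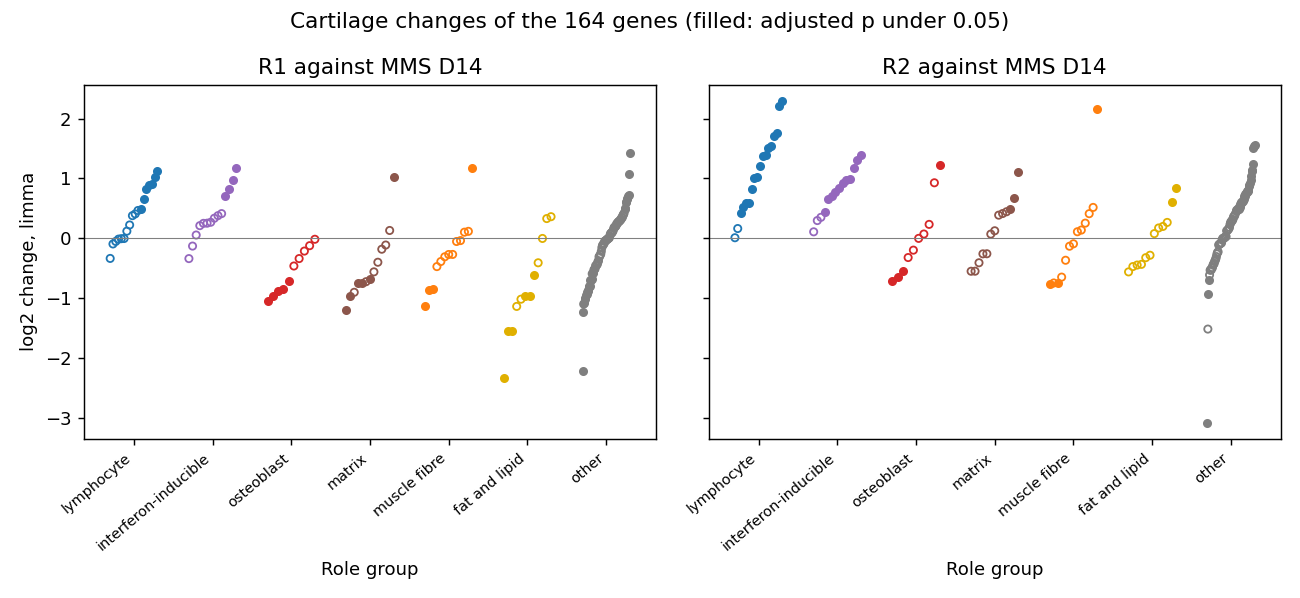
Each circle is 1 of the 164 genes, placed by its log2 change of R1 (left) or R2 (right) against MMS D14 in cartilage and grouped by role; filled circles have an adjusted p under 0.05 in limma. In R2, 16 of 18 lymphocyte and 11 of 14 interferon-inducible genes are filled above 0. In R1, 6 of 12 fat and lipid genes are filled below 0. Of all genes, 19.8% were higher in R2 and 9.78% lower in R1.

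The interferon-inducible members were low in MMS D3, uneven in MMS D7 and near Control in R2. They encode antiviral and inflammatory effectors, among them the ubiquitin-like modifier Isg15, the antiviral enzyme Rsad2 (viperin), the GTPases Irgm1 and Tgtp2, the DNA sensor family genes Ifi203, Ifi209 and Mndal, and the feedback inhibitor Socs1. Largely by the choice of members, so that nothing is read from it, all 14 had both samples below both Control samples in MMS D3 and MMS D28. In R1, 11 of 14 still did, against 51% of the table, and in R2 2 did, against 26.7%. Their median difference was -0.74 at MMS D3, -0.51 at MMS D7, -0.65 at MMS D14, -0.66 in MMS D28, -0.27 in R1 and 0.06 in R2.

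Promoter letters are shown for these genes because many of them hold the core of the ISRE. From 250 bases before to 50 after each start site, 122 of the members had an entry in the RefSeq promoter table (GRCm38.p6). Of 7 motifs searched on both strands, with overlapping matches allowed and each gene counted once, the first was the core of the ISRE, the letters GAAA, then 2 bases of any kind, then GAAA. It was found in 8 of the 10 interferon-inducible members with an entry, in 12 of 122 members (9.84%), in 5.38% of the genes of the cartilage table and in 3.99% of 27025 genes. The others with a match were Apol11b, Ebf1, Eps8l1 and Rcn3. The interferon-inducible members were grouped by known role, as genes switched on through this element. Their high count was therefore likely beforehand and is no support for the group. It also makes up most of the members' 9.84%. A heat shock motif (GAA, 2 bases, TTC, 2 bases, GAA) was in 4 of 122 members (3.28%), Hsph1 among them, and in 0.571% of the table's genes. These 4 genes are few and also count among the table's genes, and nothing is read from them. The others were in members and table at 12.3% and 10.2% for the E-box CACGTG, 2.46% and 1.79% for the CRE (TGAC, then GTCA), 5.74% and 3.75% for the D-box (TTATG, 1 base, AA), 38.5% and 40.5% for CCAAT and 4.92% and 3.02% for the forkhead motif TGTTTAC. The windows below run 5′ to 3′ on the gene's strand, with the matching letters, or their reverse complement, in capitals.
Isg15 chr4:156200850-156200909 minus strand: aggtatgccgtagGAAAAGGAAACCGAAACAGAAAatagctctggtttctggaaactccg
Rsad2 chr12:26456538-26456597 minus strand: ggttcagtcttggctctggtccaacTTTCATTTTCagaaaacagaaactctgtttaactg
Irgm1 chr11:48871421-48871469 minus strand: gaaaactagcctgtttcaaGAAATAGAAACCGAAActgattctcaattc
Tgtp2 chr11:49064248-49064307 minus strand: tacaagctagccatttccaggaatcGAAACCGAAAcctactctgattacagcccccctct
Ifi203 chr1:173942493-173942552 minus strand: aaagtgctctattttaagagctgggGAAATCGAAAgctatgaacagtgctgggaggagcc
Mndal chr1:173880189-173880248 minus strand: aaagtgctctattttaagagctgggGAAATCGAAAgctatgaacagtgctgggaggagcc
Mndal chr1:173879978-173880037 minus strand: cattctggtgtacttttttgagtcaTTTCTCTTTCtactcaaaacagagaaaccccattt
Phf11b chr14:59341346-59341405 minus strand: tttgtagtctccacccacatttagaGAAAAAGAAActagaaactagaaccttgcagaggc
Socs1 chr16:10785579-10785638 minus strand: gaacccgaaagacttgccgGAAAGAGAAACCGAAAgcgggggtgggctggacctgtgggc

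In Isg15, Irgm1 and Socs1 the matches overlapped into a longer run. Ifi203 and the nearer Mndal window were identical over 60 bases, and the gene models of Ifi203 and Mndal overlap, so reads of this pair may have been split between them. The 2 class I genes H2-Q8 and H2-Q9 belong to a family of near-identical copies and are uncertain for the same reason. A match is a description of the letters only.

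Isg15 (chr4:156199424-156200818, minus strand) read 39.7 and 47.5 in Control, 12.9 and 13.2 in MMS D3, 35.02 and 23.1 in MMS D7, 13.1 and 20.2 in MMS D14, 24.5 and 26.8 in MMS D28, 36.4 and 40.3 in R1 and 41.2 and 42.4 in R2. The MMS D3 samples were the lowest pair, with MMS D14 replicate 1 beside them, MMS D7 was higher again and uneven, and the R1 and R2 samples overlapped Control. Rsad2 (chr12:26442746-26456452, minus strand) read 45.1 and 54.02 in Control, 24.5 and 24.4 in MMS D3, 56.3 and 49.8 in MMS D7, 23.3 and 29.2 in MMS D14, 28.8 and 36.8 in MMS D28, 38.2 and 49.1 in R1 and 46.2 and 44.8 in R2. Its MMS D7 samples overlapped Control, while all MMS D3 and MMS D14 samples lay below.

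Ifi27l2a, a small mitochondrial interferon-induced protein gene (chr12:103442167-103443680, minus strand), read 51.8 and 91.2 in Control, 12.2 and 19.2 in MMS D3, 30.6 and 28.7 in MMS D7, 17.2 and 16.4 in MMS D14, 19.5 and 23.1 in MMS D28, 35.2 and 32.6 in R1 and 37.3 and 41.4 in R2. No sample outside Control reached the lower Control value, R2 included. Mndal read 24.6 and 27.4 in Control, 16.8 and 17.5 in MMS D3, 17.1 and 17.4 in MMS D7, 17.9 and 13.7 in MMS D14, 16.1 and 16.6 in MMS D28, 18.7 and 19.6 in R1 and 35.2 and 29.7 in R2, with both R2 samples the highest of the 14. Socs1, an inhibitor of cytokine receptor signalling, read 7.27 and 6.28 in Control, 3.12 and 4.04 in MMS D3, 5.94 and 3.48 in MMS D7, 8.15 and 7.23 in MMS D14, 4.29 and 3.48 in MMS D28, 6.7 and 5.14 in R1 and 9.94 and 9.41 in R2, so that MMS D14 overlapped Control and R2 lay above it.

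The test between MMS D14 and MMS D7 called 15 members higher (9.15%) and 5 lower (3.05%), where 9.28% and 7.66% of all genes were called. These calls rested on single libraries: 12 were made without MMS D7 replicate 1 (10 of them among the 20), 3 without MMS D14 replicate 1 or replicate 2, and none without MMS D7 replicate 2. In that last fit limma called 3 genes of the whole table, and 36 members had an unadjusted p under 0.05. In the interferon group Rsad2 fell by 0.99 on the log2 scale between MMS D7 and MMS D14 (SE 0.17, adjusted p = 0.00597), as did Isg15 (-0.77 ± 0.21, adjusted p = 0.0321) and Ifi27l2a (-0.79 ± 0.24, adjusted p = 0.0434), while Socs1 rose (0.64 ± 0.20, adjusted p = 0.0467). Without MMS D7 replicate 2 the adjusted p was 0.0587 for both Rsad2 and Isg15 and 0.227 for Ifi27l2a. The change of Isg15 was -0.48 without MMS D7 replicate 1 (adjusted p = 0.117) and -0.47 without MMS D14 replicate 1 (0.168). No lymphocyte member passed, and 1 of 18 had an unadjusted p under 0.05.

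In R2, 11 of 14 interferon-inducible members were higher than in MMS D14, where 19.8% of all genes were. Higher in R1 than in MMS D14 were 8.28% of all genes, and higher in R2 than in R1 were 13.2%. Isg15 rose by 1.31 ± 0.21, adjusted p = 0.000463, Ifi209 by 1.39 ± 0.13, adjusted p = 8.44e-06, and Ifi27l2a by 1.18 ± 0.24, adjusted p = 0.00231. In R1, 4 of 14 had risen over MMS D14: Isg15 (1.18 ± 0.21, adjusted p = 0.00262), Ifi27l2a (0.97 ± 0.24, adjusted p = 0.0149), Ifi209 and Rsad2. That count was 2 without MMS D14 replicate 1 or R1 replicate 2. From R1 to R2, 6 rose, and 0 to 4 did without any 1 library (0 without R2 replicate 1). Of a list of 25 interferon response genes 4 were in the table, the members Isg15, Rsad2 and Ifi27l2a and the non-member Oasl1, and all 4 rose in both R1 and R2 over MMS D14. The 4 genes summed to 140 to 196 in Control, 52 to 59 in MMS D3, 106 to 126 in MMS D7 and 55 to 68 in MMS D14.

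By their median the osteoblast members were lowest in MMS D3, stood near Control in MMS D14 and were low again in MMS D28. This group holds the osteocalcin genes Bglap and Bglap2, the osteoblast transcription factor Sp7 (osterix), the homeobox factor Dlx3, the vitamin D receptor Vdr, the sphingomyelinase Smpd3, Bmp3, Notum, which inactivates Wnt proteins, Wisp1 and Ggcx, the carboxylase that modifies osteocalcin. The median difference was -0.87 at MMS D3, -0.19 at MMS D7, 0.11 at MMS D14, -0.76 in MMS D28, -0.51 in R1 and 0.05 in R2. In MMS D14, 5 of 10 had both samples above both Control samples, near the 44.6% of the whole table. Another 3, Bglap and Bglap2 among them, had both below, where 40% of the table did.

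Bglap2 (chr3:88377736-88378699, minus strand) read 1269.5 and 1338 in Control, 287 and 186 in MMS D3, 415 and 356 in MMS D7, 707 and 828 in MMS D14, 338 and 576 in MMS D28, 979 and 587 in R1 and 2259.7 and 1429 in R2. Bglap, 4.802 kb away (chr3:88383501-88384464, minus strand), read 2566 and 2526 in Control, 799 and 454 in MMS D3, 917 and 841 in MMS D7, 1791 and 2169 in MMS D14, 773 and 1454 in MMS D28, 2269 and 1278 in R1 and 4664 and 3017 in R2. Both genes had their highest samples in R2, and the samples within MMS D28, R1 and R2 were far apart. The MMS D3 samples were the lowest pair for Bglap2. For Bglap, MMS D28 replicate 1 lay below MMS D3 replicate 1. The osteocalcin genes are close copies, and how the counting split their reads is not given in the sources used here.

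Sp7 (chr15:102356606-102367182, minus strand) read 39.4 and 36.3 in Control, 23.8 and 22.4 in MMS D3, 32.9 and 34.4 in MMS D7, 43 and 43.5 in MMS D14, 15.3 and 23.9 in MMS D28, 27.1 and 20.9 in R1 and 42.3 and 28.1 in R2. Its MMS D14 samples lay above both Controls and its MMS D28 samples below. Vdr (chr15:97854425-97910630, minus strand) read 17.1 and 18.01 in Control, 11.9 and 8.33 in MMS D3, 17.6 and 19.6 in MMS D7, 19.1 and 17.9 in MMS D14, 7.62 and 9.28 in MMS D28, 9.53 and 7.41 in R1 and 13.8 and 8.48 in R2. For Vdr, MMS D7 and MMS D14 overlapped Control, and MMS D3, MMS D28, R1 and R2 lay below it.

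Against MMS D7, 3 of 10 osteoblast members rose in MMS D14, Bglap (1.17 ± 0.36, adjusted p = 0.0438), Bglap2 (0.99 ± 0.32, adjusted p = 0.0499) and Notum (0.81 ± 0.25, adjusted p = 0.0421), and none of the 3 calls was left without any 1 of the 4 libraries. In R1, 5 of 10 were lower than in MMS D14: Vdr (-1.05 ± 0.21, adjusted p = 0.00545), Wisp1, Dlx3, Sp7 and Bmp3, and none without R1 replicate 2. R2 differed between genes. Bglap2 was higher in R2 than in MMS D14 (1.23 ± 0.32, adjusted p = 0.00967), while Vdr (-0.72 ± 0.21, adjusted p = 0.0214), Bmp3 and Wisp1 were lower. The 3 lower calls were not made without R2 replicate 2, MMS D14 replicate 1 or MMS D14 replicate 2, and no osteoblast member was called higher without MMS D14 replicate 1 or R2 replicate 1. From R1 to R2, Bglap2 rose by 1.24 ± 0.32, adjusted p = 0.0139; without R1 replicate 2 or R2 replicate 1 the adjusted p was 0.119 and 0.126.

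A list of 19 osteoblast and osteocyte genes had 10 in the table and 4 members, and all 10 were below Control in MMS D3, MMS D28 and R1. Their summed level was 5711 to 5967 in Control, 2374 to 2946 in MMS D3, 4067 to 4736 in MMS D14, 2065 to 3439 in MMS D28 and 5678 to 8549 in R2.

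**Figure D4:**
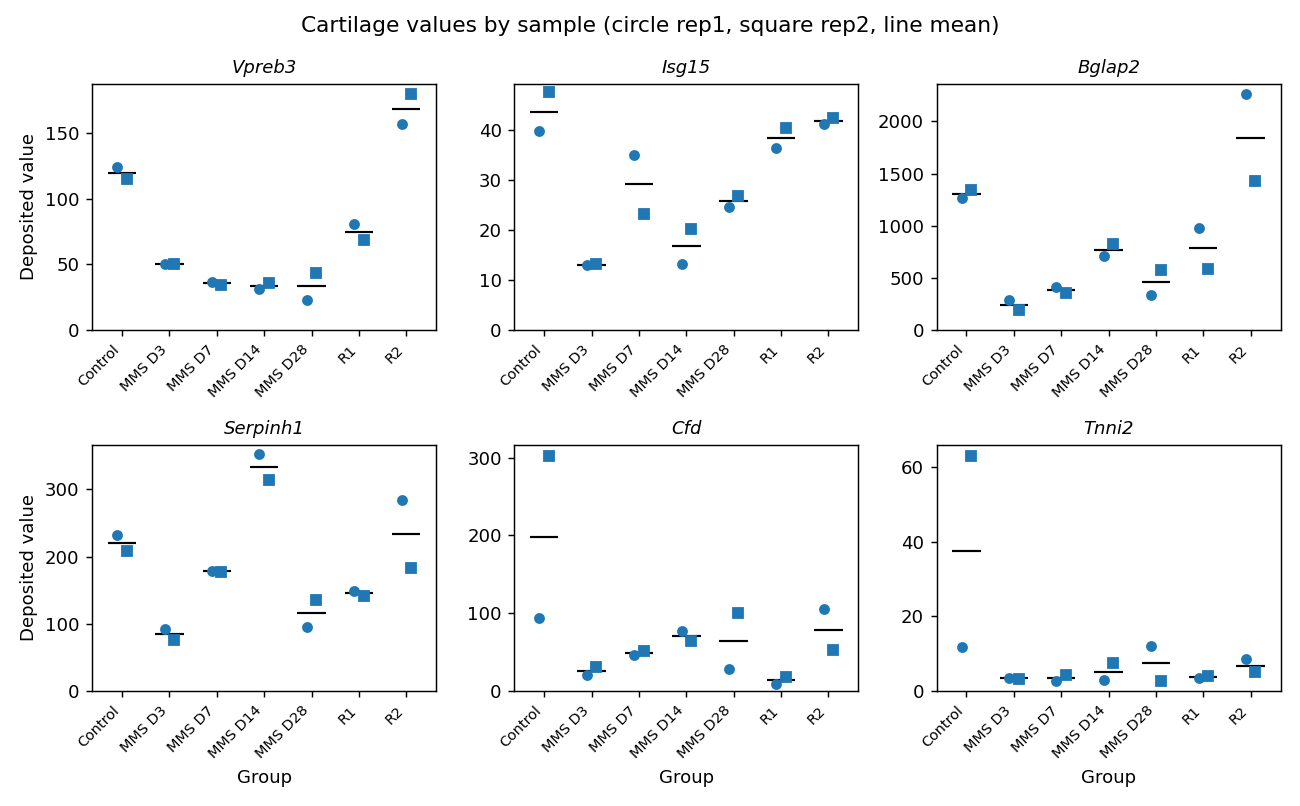
Deposited cartilage values of 6 genes in every sample of the 7 groups, with circles for replicate 1, squares for replicate 2 and a line at the mean of 2. Vpreb3 is low in all MMS groups and highest in R2, Serpinh1 is highest in MMS D14 at 353 and 314, and the Control pair is far apart in Cfd and Tnni2.

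The matrix members were low in MMS D3 and MMS D28 and near Control in MMS D14 and R2. Serpinh1 and Rcn3 serve collagen folding in the secretory pathway, Col11a2 and Col13a1 are collagens, Fmod binds collagen fibrils, Loxl2 cross-links collagen, and Mia is a secreted chondrocyte protein. The median difference was -0.73 at MMS D3, -0.36 at MMS D7, 0.05 at MMS D14, -0.85 in MMS D28, -0.60 in R1 and 0.01 in R2. In MMS D14, 6 of 13 (46.2%) had both samples above both Controls, near the 44.6% of the whole table.

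Serpinh1, the collagen chaperone HSP47 (chr7:99345376-99353239, minus strand), read 232 and 208 in Control, 91.8 and 76.2 in MMS D3, 178 and 177 in MMS D7, 353 and 314 in MMS D14, 95.2 and 136 in MMS D28, 149 and 142 in R1 and 284 and 183 in R2. Both MMS D14 samples were above every other sample, and MMS D3 and MMS D28 were at the low end. Fmod (chr1:134037254-134048277, plus strand) read 197 and 216 in Control, 119 and 87.3 in MMS D3, 108 and 157 in MMS D7, 323 and 255 in MMS D14, 46.5 and 181 in MMS D28, 217 and 175 in R1 and 465 and 329.5 in R2. Its MMS D28 samples were far apart, and without MMS D28 replicate 1 or replicate 2 its difference no longer met the rule. Mia (chr7:27179742-27181157, minus strand) had its low point in MMS D14 instead and read 67.8 and 68.6 in Control, 31.3 and 41.1 in MMS D3, 32.2 and 34.02 in MMS D7, 20.8 and 23.1 in MMS D14, 21.6 and 28.8 in MMS D28, 50.9 and 40.98 in R1 and 53.2 and 44.1 in R2.

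Serpinh1 rose from MMS D7 to MMS D14 by 0.90 ± 0.21, adjusted p = 0.019, and Kazald1 by 0.89 ± 0.18, adjusted p = 0.0112, while Mia fell by 0.57 on the log2 scale (SE 0.18, adjusted p = 0.0462). All 3 calls were lost without MMS D7 replicate 2, at adjusted p of 0.142, 0.0738 and 0.272. Serpinh1 was lower in R1 than in MMS D14 (-1.19 ± 0.21, adjusted p = 0.00282), and so were Rcn3, Fbln1, Kazald1 and Tgfb2. Mia was higher in R1 (1.03 ± 0.18, adjusted p = 0.00252). Of all genes, 9.78% were lower and 8.28% higher in R1 than in MMS D14. In R2, 19.8% of all genes were higher than in MMS D14 and 13.2% higher than in R1. The count of lower matrix members was 1 without MMS D14 replicate 1 or R1 replicate 2 and 3 without MMS D14 replicate 2. In R2 Mia (1.11 ± 0.18, adjusted p = 0.00051), Igfbp5 and Emid1 were higher than in MMS D14, and 1 matrix member was higher without MMS D14 replicate 2 or R2 replicate 1. From R1 to R2, 5 of 13 rose, Loxl2 by 1.14 ± 0.28, adjusted p = 0.012, and none passed without R1 replicate 2 or R2 replicate 1.

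The muscle fibre members were the lowest of the 6 groups and rested mainly on 1 Control library. Tnni2 is a fast skeletal troponin, Mylpf a fast myosin light chain, Tpm1 and Tpm2 are tropomyosins, Pygm and Eno3 are muscle enzymes of glycogen and glucose breakdown, and Cdh15 is the muscle cadherin. In 10 of 13, Control replicate 2 was over 1.5 times Control replicate 1. Without Control replicate 2, 5 of 13 still met the rule, and the group's median difference in MMS D28 went from -1.25 to -0.45.

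Tnni2 (chr7:142441808-142444410, plus strand) read 11.8 and 63.04 in Control, 3.55 and 3.12 in MMS D3, 2.78 and 4.3 in MMS D7, 2.87 and 7.41 in MMS D14, 12.2 and 2.71 in MMS D28, 3.5 and 4 in R1 and 8.57 and 5.03 in R2. Control replicate 2 stood alone, and Control replicate 1 overlapped MMS D28. Mylpf (chr7:127208890-127214298, plus strand) read 15.3 and 90.3 in Control, 8.84 and 3.45 in MMS D3, 3.61 and 7.08 in MMS D7, 4.23 and 9.39 in MMS D14, 22.3 and 4.31 in MMS D28, 6.55 and 5.71 in R1 and 7.91 and 4.39 in R2. Here also Control replicate 2 was the highest sample, and MMS D28 replicate 1 lay above Control replicate 1.

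Myl4, the atrial and embryonic myosin light chain (chr11:104550663-104595753, plus strand), did not share this and read 23.7 and 20.2 in Control, 6.69 and 5.8 in MMS D3, 5.18 and 4.3 in MMS D7, 5.14 and 5.39 in MMS D14, 5.21 and 7.01 in MMS D28, 11.98 and 14.4 in R1 and 23.04 and 31.4 in R2. Its Control samples were close, and its MMS samples were all low, with R1 between them and Control. It rose by 1.18 ± 0.18, adjusted p = 0.00171 in R1 and by 2.16 ± 0.18, adjusted p = 4.29e-06 in R2 against MMS D14. No other muscle member was higher in either comparison. In R1 Cdh15 was lower (-1.13 ± 0.26, adjusted p = 0.0108), as were Tpm1 and Tpm2, where 9.78% of all genes were. Without any 1 library of these groups fewer muscle members were called lower. In R2 Tpm1 (-0.76 ± 0.26, adjusted p = 0.0386) and Cdh15 (-0.74 ± 0.26, adjusted p = 0.0442) were lower, where 15.9% of all genes were. The Tpm1 change in R2 was -0.45 without R2 replicate 2. A list of 20 skeletal muscle genes had 3 in the table, all members, with a summed level of 37 and 186 in the Control samples and 13 to 45 in every other sample.

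The fat and lipid members were low in MMS D3 and lowest in R1, and their MMS D14 level against Control rested on 1 Control library. Cfd encodes the adipocyte protease adipsin, Car3 a carbonic anhydrase of fat and muscle, Scd1 the desaturase of fatty acids, Thrsp and Pcx act in fat synthesis, Gpd1 in glycerol supply, Angptl4 inhibits lipoprotein lipase, and Lipc and Lcat are lipases and acyltransferases of lipoproteins. In 6 of 12 Control replicate 2 was over 1.5 times Control replicate 1, and 7 of 12 met the rule without it. The median difference was -0.84 in MMS D3, -0.43 in MMS D14, -0.81 in MMS D28, -1.16 in R1 and -0.60 in R2. Without Control replicate 2 it was -0.65 in MMS D3, 0.01 in MMS D14, -0.53 in MMS D28, -0.79 in R1 and -0.15 in R2.

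Cfd (chr10:79890853-79892655, plus strand) read 93.7 and 302 in Control, 20.5 and 30.6 in MMS D3, 46.3 and 51.1 in MMS D7, 76.9 and 64.5 in MMS D14, 28.5 and 99.97 in MMS D28, 9.46 and 18.2 in R1 and 105 and 52.7 in R2. Both R1 samples lay under all others, and MMS D28 replicate 2 lay above Control replicate 1. Car3 (chr3:14863512-14872523, plus strand) read 113 and 261 in Control, 65.9 and 40.2 in MMS D3, 74.3 and 85.1 in MMS D7, 142 and 141 in MMS D14, 48.1 and 100.2 in MMS D28, 54.9 and 42.2 in R1 and 138 and 75.5 in R2. Its MMS D14 samples lay inside the Control range. Lipc, whose Control samples were alike, read 7.76 and 7.39 in Control, 1.75 and 1.15 in MMS D3, 2.83 and 3.07 in MMS D7, 4.45 and 5.93 in MMS D14, 2.32 and 2.42 in MMS D28, 4.62 and 2.83 in R1 and 8.95 and 4.5 in R2, with MMS D3 lowest and R2 overlapping Control.

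Between MMS D14 and R1, 9.78% of all genes fell. Of the fat and lipid members 6 of 12 did: Cfd by 2.33 on the log2 scale (SE 0.58, adjusted p = 0.0161), Car3 by 1.54 (SE 0.41, adjusted p = 0.0223), Scd1 by 1.54 (SE 0.43, adjusted p = 0.0274), and Angptl4, Mrap and Pdk4. The calls were few without a library, 2 without MMS D14 replicate 2, 1 without R1 replicate 2 and none without MMS D14 replicate 1 or R1 replicate 1, where 8 and 7 members were lower at an unadjusted p under 0.05. In R2, Lcat (0.84 ± 0.20, adjusted p = 0.00597) and Pla2g16 (0.60 ± 0.15, adjusted p = 0.00645) were higher than in MMS D14, and Cfd was higher than in R1 (2.41 ± 0.58, adjusted p = 0.0109), though not without R1 replicate 1 (adjusted p = 0.0824) or R2 replicate 1 (0.0992). Of 18 adipocyte genes 3 were in the table, and these summed to 220 and 586 in the Control samples, 231 to 241 in MMS D14 and 86 to 90 in R1.

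Among the 84 members in no group, Msmp had the lowest MMS D28 difference of all members at -2.35. Msmp, a microseminoprotein-type secreted protein gene (chr4:43583216-43584494, minus strand), read 139 and 531 in Control, 65.6 and 81.2 in MMS D3, 171 and 201 in MMS D7, 201 and 107 in MMS D14, 47.7 and 81.6 in MMS D28, 85.7 and 134 in R1 and 109 and 23.5 in R2. Its Control samples were far apart, and MMS D7 and MMS D14 overlapped them.

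Several of the 84 were low in all MMS groups and had returned in R2. Cnp, a myelin and cytoskeletal phosphodiesterase, read 51.2 and 52.4 in Control, 29.2 and 33.1 in MMS D3, 22.8 and 20.2 in MMS D7, 20.8 and 21.9 in MMS D14, 22.1 and 25.3 in MMS D28, 37.1 and 34.7 in R1 and 61.03 and 67.8 in R2 and rose by 1.55 ± 0.13, adjusted p = 4.29e-06 in R2 against MMS D14. Apol11b, an apolipoprotein L gene, read 20.4 and 24.5 in Control, 5.92 and 6.36 in MMS D3, 11.97 and 8.96 in MMS D7, 7.26 and 7.39 in MMS D14, 13.8 and 14.4 in MMS D28, 17.8 and 25.3 in R1 and 23.8 and 23.2 in R2 and was already higher in R1 (1.42 ± 0.17, adjusted p = 0.000602). Hr, the hairless corepressor, rose by 1.08 ± 0.21, adjusted p = 0.00404 in R1 and by 1.503 ± 0.21, adjusted p = 0.000178 in R2.

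Others peaked inside the series. Mt3, a metallothionein (chr8:94152607-94154146, plus strand), read 19.9 and 14.5 in Control, 7.08 and 7.97 in MMS D3, 25.3 and 40.6 in MMS D7, 33.2 and 47.7 in MMS D14, 11.8 and 10.1 in MMS D28, 9.85 and 6.23 in R1 and 8.15 and 1.58 in R2. Its MMS D7 and MMS D14 samples were all above Control, and R2 replicate 2 was the lowest sample. It fell by 3.07 on the log2 scale in R2 (SE 0.45, adjusted p = 0.000244) and by 2.20 in R1 (SE 0.45, adjusted p = 0.00535) against MMS D14, the latter not without R1 replicate 2 (0.0581). Cgref1, a calcium-binding secreted protein gene, read 19.5 and 14.4 in Control, 13.1 and 10.3 in MMS D3, 11.2 and 15.8 in MMS D7, 29.8 and 28.9 in MMS D14, 8.12 and 12.2 in MMS D28, 13.1 and 10.97 in R1 and 21.7 and 14.8 in R2 and was lower in R1 than in MMS D14 (-1.22 ± 0.24, adjusted p = 0.00407). Sema7a, a membrane-bound semaphorin, read 24.3 and 24.3 in Control, 18.4 and 16.4 in MMS D3, 30.2 and 37.2 in MMS D7, 34.98 and 31.6 in MMS D14, 14.3 and 16.7 in MMS D28, 17.8 and 18.2 in R1 and 20.9 and 13.8 in R2 and was lower in both (-0.85 ± 0.18, adjusted p = 0.00604 in R1 and -0.93 ± 0.18, adjusted p = 0.00165 in R2).

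Arntl, the core clock factor BMAL1, read 10.6 and 10.3 in Control, 5.1 and 4.52 in MMS D3, 3.65 and 3.85 in MMS D7, 7.64 and 4.94 in MMS D14, 3.82 and 3.74 in MMS D28, 5.74 and 6.33 in R1 and 9.89 and 10.2 in R2. It was low in all MMS groups and just under Control in R2, where it was higher than in MMS D14 (0.63 ± 0.16, adjusted p = 0.00861). Of 19 clock genes, 4 were in the table; Per1, a repressor of the same loop, had differences of 1.41 in MMS D3 and 1.62 in MMS D28, and Nfil3 of 0.02 and 0.97. Of 5 heat shock genes in the table Hsph1 alone was a member, and it read 10 and 12.3 in Control, 6.31 and 5.55 in MMS D3, 6.09 and 5.57 in MMS D7, 9.53 and 9.7 in MMS D14, 6.6 and 6.04 in MMS D28, 9.55 and 9.83 in R1 and 16.9 and 13.7 in R2.

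Some members are neighbours on their chromosome. Within 100 kb of each other lay Bglap and Bglap2, Ifi27 and Ifi27l2a, Mndal and Ifi203, Vpreb3 and Chchd10, Nfkbie and Slc29a1, Syt12 and Pcx, Tpm2 and Msmp, Nrgn and Spa17, and Asb2 and Ifi27. Chchd10, a mitochondrial protein gene 5.31 kb from Vpreb3, was higher in R2 than in MMS D14 (0.79 ± 0.14, adjusted p = 0.00107).

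In synovium 37 of the members were in the table of 1178 genes, and these samples were not used by the rule. The synovium table is itself a selected set in which most genes differ from Control, so the background is high. At MMS D3, 17 of 37 members were lower (45.9%) and none higher, where 39.6% and 16.3% of all genes were; 1 member was higher without the 5 libraries named next. At MMS D7, 21 were lower (56.8%) and 3 higher (8.11%), where 61.6% and 24.1% were. At MMS D14, 24 were lower (64.9%) and 7 higher (18.9%), where 69.3% and 27.7% were; with samples centred on their median the members split 19 lower and 12 higher. In R1, 16 were lower (43.2%) and 4 higher (10.8%), where 45.2% and 15.9% were. In R2, 15 were lower (40.5%) and 2 higher (5.41%), where 45.1% and 15.7% were, and with centring 11 were lower and 5 higher. In either direction 55.9%, 85.7%, 96.9%, 61.1% and 60.8% of all genes were called in the 5 comparisons in this order. The members' lower shares are near the background and say nothing particular of the members. Their higher shares were below the background in all 5 comparisons of the main fit. They rest on at most 7 of 37 members, and the gap was not tested.

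In 5 synovium libraries, replicate 3 of every group but R1, the gene models Gm2023 and Gm6958 read 1.71 to 3.36 and 1.17 to 2.30, against 12.6 to 56.2 and 5.12 to 20.5 in the other 13. Without these 5, the members called went from 17 to 24 at MMS D3, 24 to 26 at MMS D7, 31 to 29 at MMS D14, 20 to 24 in R1 and 17 to 23 in R2.

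Most fat and lipid members were low in synovium from MMS D7 on. All 9 that were measured fell at MMS D14, where 69.3% of all genes did, and 8 of 9 at MMS D7, in R1 and in R2, where 61.6%, 45.2% and 45.1% did. At MMS D3, 4 of 9 fell, against 39.6%. Cfd FPKM was 20232, 18036 and 12767 in Control, 7087, 10286 and 9973 in MMS D3, 7509.7, 7598 and 5329 in MMS D7, 2563, 3041 and 3389 in MMS D14, 8319.8, 8460.3 and 9116 in R1, 8130.4, 9412 and 7212 in R2. All Control samples lay above all others, and MMS D14 was the lowest group. Cfd fell by 2.49 on the log2 scale at MMS D14 (SE 0.23, adjusted p = 5.59e-08), and Thrsp by 3.11 (SE 0.35, adjusted p = 4.14e-07).

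Of the 4 interferon-inducible members in synovium, Ifi27l2a, Ifi27 and Tgtp2 fell in all 5 comparisons, which 9 of 37 members and 317 of 1178 genes did. The other, Socs1, was never lower and was higher at MMS D14 (1.21 ± 0.46, adjusted p = 0.0175), where no interferon-inducible member was called higher without Control replicate 3 or without the 5 libraries (Socs1 0.76, adjusted p = 0.0533). Ifi27l2a FPKM was 3416, 3241 and 2456 in Control, 1545, 2152 and 1829 in MMS D3, 958, 1037 and 572 in MMS D7, 269, 319.7 and 297 in MMS D14, 978, 811 and 1209 in R1, 1098, 1228 and 862 in R2. The 3 MMS D14 samples lay far below the rest, and R1 and R2 stayed under Control, with changes of -3.35 ± 0.23, adjusted p = 5.18e-09 at MMS D14 and -1.52 ± 0.23, adjusted p = 0.000171 in R2. Irf4, the lymphocyte factor, had FPKM of 6.12, 5.09 and 5.32 in Control, 1.93, 2.41 and 2.53 in MMS D3, 2.76, 2.56 and 2.12 in MMS D7, 1.47, 1.24 and 1.52 in MMS D14, 3.49, 4.85 and 3.44 in R1, 4.86, 4.69 and 4.72 in R2 and fell at MMS D3, MMS D7, MMS D14 and R1. In R2 its change was -0.17 ± 0.13, adjusted p = 0.27.

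Other members were higher than Control in some synovium groups. At MMS D3, the only MMS group of the rule that synovium has, Fmod, Loxl2 and Tpm1 were not called. Fmod FPKM was 19.6, 6.39 and 6.26 in Control, 20.6, 15.1 and 6.07 in MMS D3, 78.2, 51.4 and 59.7 in MMS D7, 339.9, 465 and 282 in MMS D14, 135, 27.9 and 54.9 in R1, 38.4, 63.6 and 45.7 in R2. It rose at MMS D7, MMS D14, R1 and R2, by 5.10 ± 0.50, adjusted p = 9.41e-08 at MMS D14, where both of its cartilage samples also lay above Control. Loxl2 rose at MMS D7, MMS D14 and R1, by 1.31 ± 0.25, adjusted p = 9.45e-05 at MMS D14, and its R1 call was lost without Control replicate 3 (0.0552) or R1 replicate 2 (0.0560). Tpm1 rose at MMS D14 by 0.998 ± 0.23, adjusted p = 0.000533 without overlap with Control, and by 0.58 without the 5 libraries (adjusted p = 0.0155), while Ankrd23, another muscle member, was called there (1.26 ± 0.44, adjusted p = 0.012) but not without the 5 libraries (0.404).

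The osteocalcin genes were lower in some groups and higher in others. Bglap2 FPKM was 39.9, 53.1 and 53.2 in Control, 17.8, 26.8 and 20.1 in MMS D3, 45.8, 49.3 and 22 in MMS D7, 25.7, 33.7 and 21.5 in MMS D14, 94.5, 77.2 and 113 in R1, 102, 78.6 and 47.8 in R2. It was lower at MMS D3 (-1.15 ± 0.30, adjusted p = 0.00464) and MMS D14 and higher in R1 (0.94 ± 0.30, adjusted p = 0.0127), a call lost without Control replicate 1 (0.0522) or R1 replicate 3 (0.0521). Bglap was higher in R1 (1.24 ± 0.34, adjusted p = 0.00502) and, with overlapping samples, in R2 (0.82 ± 0.34, adjusted p = 0.0444). The R2 call was lost without any 1 of the 3 Control libraries, R2 replicate 1 or R2 replicate 2, at adjusted p of 0.0813 to 0.205, and with only the groups compared (0.0716), while without the 5 libraries its change was 1.25 (0.00198). Of the members in no group, Clic5, a chloride channel family gene of the lining, fell at MMS D3 by 2.51 on the log2 scale (SE 0.20, adjusted p = 1.37e-07) and less at MMS D14 (-1.47 ± 0.20, adjusted p = 2.23e-06), and was not called in R1 or R2.

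**Figure D5:**
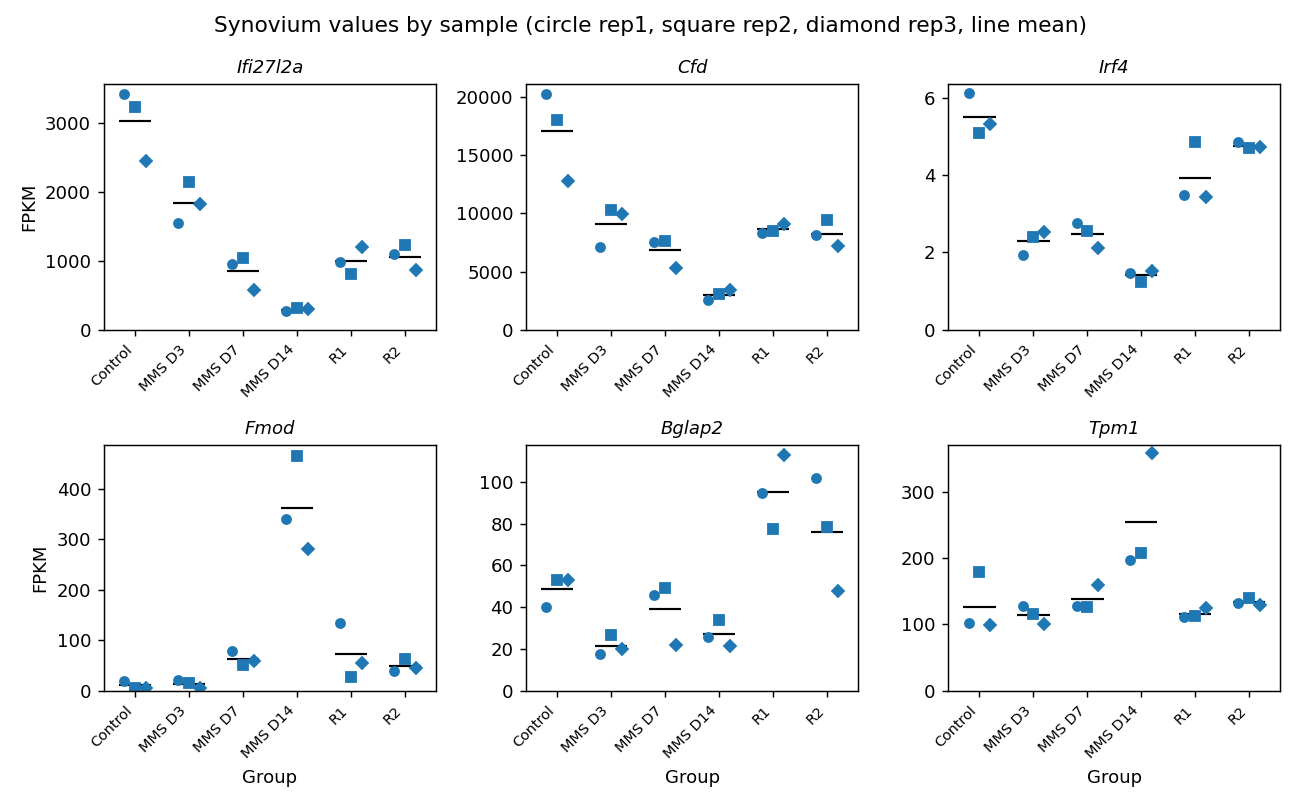
FPKM of 6 of the genes in each synovium sample of the 6 groups, with circles, squares and diamonds for replicates 1 to 3 and a line at the mean of 3. Ifi27l2a and Cfd are below Control in all other groups, Fmod is highest in MMS D14 at 282 to 465, and Bglap2 is lowest in MMS D3 and highest in R1 and R2.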

How the data were processed

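Cartilage (14 samples, n = 2 in each of 7 groups) and synovium (18 samples, n = 3 in each of 6) were compared. Reads were aligned with HISAT2 to mm10, per the submitters' processing notes. The cartilage signal deposited by the authors has no stated unit, synovium values are FPKM per the file headers, and the deposited tables hold selected genes (1606 and 1178) by a criterion not given in the sources used here. Values summed to 108504 to 149830 per cartilage sample and 70104.5 to 132996 per synovium sample, and read depth is unknown.

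Values were taken as log2(value + 1), so changes of low genes are understated, and fitted with limma 3.58.1 (R 4.3.3) with a variance trend over all groups of a tissue. P-values were adjusted by Benjamini-Hochberg over each whole table and called under 0.05. Summaries used Python 3.11.15 with pandas 2.3.3. The fit was tested on simulated data. Alternatives were another pseudocount, no low-value filter, centring on the sample median, no variance trend, only the 2 groups compared, a replicate block, an added fold limit, other membership limits and each library left out.

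The members, gene lists and role groups were chosen with earlier results of these data known. Named genes are the 12 members with the lowest MMS D28 difference among those above the table's median level, up to 6 members called in each direction per cartilage test without overlap between the groups and up to 4 per synovium test, genes at the limits of the rule, and up to 4 members of each list, predicted gene models left out. Other members, such as Igll1, Lipc, Sp7, Socs1, Mndal and Chchd10, were named for their role, and chosen after their values were seen. Leaving out the 5 synovium libraries that stand apart and counting by role group were added after seeing the data. Positions are GENCODE vM21, and promoters RefSeq GRCm38.p6.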

Additional observations from a re-analysis of the deposited data

Results flagged for a closer look

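Members were sought with all MMS D3 and MMS D28 cartilage samples below Control and both MMS D7 or both MMS D14 samples above. A rise over Control of at least 0.5 on the log2 scale was also required, and 3 members met both conditions. Others, such as Sp7 and Sema7a, met the first condition with smaller rises. These differences between groups were not tested. Serpinh1 was below Control in MMS D3 and MMS D28 and above it in MMS D14, by 0.60 on the log2 scale. Cgref1 was above it in MMS D14 by 0.76. Mt3 was above it by 0.90 in MMS D7 and by 1.19 in MMS D14.

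Members were also sought with R1 on opposite sides of MMS D14 in the 2 tissues, in every sample. A log2 difference of at least 1 in both tissues was required, and 4 members met this, all of the fat and lipid group. Car3 and Mrap of the same group also lay on opposite sides but fell short of this limit. The difference between tissues was not tested, and the tables were normalised separately. Cfd differed by -2.27 in cartilage and 1.53 in synovium. Gpd1 differed by -1.02 and 1.17, Scd1 by -1.53 and 1.02, and Thrsp by -1.14 and 1.96.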

How the results depend on the processing

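No single-gene result reversed under the alternatives run, but some balances of higher and lower calls did, and some medians near 0 changed sign. In R1 against MMS D14 the members called were mostly lower in the main fit. Without MMS D14 replicate 1 or R1 replicate 2 they were mostly higher. Against Control, the fat and lipid median at MMS D14 went from -0.43 to 0.01 and the osteoblast median in R2 from 0.05 to -0.01 without Control replicate 2. Without Control replicate 1 the R2 medians went from 0.06 to -0.06 for interferon-inducible and from 0.01 to -0.06 for matrix members. The whole table's MMS D7 median went from -0.06 to 0.05 with centring. The 164 members became 106 with a ratio of at least 0.8 and 29 with an MMS D28 difference at or under -1. The count at or under -0.5 in R1 went from 86 to 54 when samples were centred, and in R2 from 26 to 14 without Control replicate 2 and 40 without R2 replicate 1. With an absolute log2 change of at least 1 as well, members called numbered 2 for MMS D14 against MMS D7, 17 for R1 against MMS D14, 25 for R2 against MMS D14 and 9 for R2 against R1; in synovium they numbered 6 at MMS D3, 11 at MMS D7, 8 in R1 and 9 in R2. With 1 library left out, members called ranged from 0 to 12 for MMS D14 against MMS D7, 21 to 37 for R1 against MMS D14, 53 to 75 for R2 against MMS D14 and 18 to 63 for R2 against R1. Where this left 1 sample in a group, it was assumed to vary like the other groups. No whole-table shares stand beside these counts or those with a replicate block below. They show only how far the members' own counts moved.

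Same-numbered samples correlated at -0.508 to 0.422 over 42 cartilage pairs (median -0.09), 12 of them over 0.1 and 20 under -0.1. Over 45 synovium pairs they correlated at -0.165 to 0.661 (median 0.13), 26 over 0.1 and 2 under -0.1. The main fit did not take the numbers to pair the samples, although the synovium correlations leaned to the positive side. With the replicate number as a block, members called numbered 16, 54, 74 and 53 in the 4 cartilage comparisons in the order above and, in synovium, 17 at MMS D3, 24 at MMS D7, 32 at MMS D14, 21 in R1 and 19 in R2. Of 71 single-gene results 45 kept their call in every alternative run and 26 lost it without at least 1 library. With n = 2 and unknown depth, differences of low genes are limited most.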
